A study of Mus musculus with 9 samples.

Results

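Interferon-stimulated genes are the genes that cells switch on when interferon reaches them. A list of 46 mouse symbols of such genes, given for this work, was followed in mouse kidney cortex. The list was chosen with earlier results of these data known, so its counts beside all genes are a description only. Each symbol was matched by its Entrez gene number to a table of 17963 genes. Rows were found for 44 of the 46, and all 44 passed the filter on low counts that left 13954 genes for testing; Mx1 and Mx2 were not analysed here. RNA sequencing libraries were made from 9 cortex samples taken on day 4, 3 from each of 3 groups. Control mice were given an intraperitoneal saline injection and intragastric pure water. Mice of the cisplatin group were given intraperitoneal cisplatin, a chemotherapy agent toxic to tubule cells, with intragastric pure water. The mice called YSJZD here, after the preparation named in the labels, were given intraperitoneal cisplatin with intragastric YSJZD. All animals were wild type (WT in the labels); the labels state no strain, age, sex or dose, and a group with YSJZD alone was not analysed here. The labels do not say that each library came from a different mouse, so the spread behind each p-value is that between these libraries, which may be technical.

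Type I interferons bind the receptor made of IFNAR1 and IFNAR2, whose kinases JAK1 and TYK2 activate STAT proteins, among them STAT2; these join IRF9 and bind the interferon-stimulated response element of target promoters. Interferon gamma binds IFNGR1 and IFNGR2, signals through JAK1 and JAK2, and leads to binding at the gamma-activated sequence. Interferon can be made when sensors such as RIG-I, MDA5, cGAS with STING, and the toll-like receptors meet viral nucleic acid or the cell's own nucleic acid in the wrong place, and tubule cells as well as leukocytes can make and answer it.

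Library totals lay between 15029274 and 16690471 expected counts. The kidney identity of the libraries was visible in 10 proximal tubule markers, whose levels summed to between 19963 and 22672 CPM (counts per 1000000 counts, scaled by TMM factors) in control, to between 1319 and 2243 in cisplatin and to between 6470 and 12451 in YSJZD. The 3 tubule injury genes (Havcr1, Lcn2 and Krt20) summed to between 5.96 and 7.94 CPM, between 2812 and 5966 CPM, and between 395 and 1398 CPM in the same order. In such bulk samples, fewer cells of a type and less RNA per cell cannot be told apart.

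Cisplatin raised nearly the whole list. Against control, 43 of the 44 members were higher and none lower at an adjusted p under 0.05 (edgeR quasi-likelihood test, Benjamini-Hochberg over all 13954 genes), and all 43 were at least 2-fold higher; the share of all tested genes called was 54.6%, with 28.6% higher and 26.0% lower, and with 18.6% higher and 14.4% lower by at least 2-fold. The members' median log2 fold change was 2.88, with a range from 0.97 to 4.85, where the median over all tested genes was 0.04. All 44 members, Ifi44 included, had every cisplatin library above every control library, as had 32.4% of all tested genes. Oas3 passed the filter on low counts through its cisplatin libraries, and its calls are included in the counts here and below. The steepest rises were in Isg20, Oasl1, Ifit1 and Isg15, at 28.9-fold, 28.8-fold, 25.5-fold and 18.9-fold.

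With YSJZD, most of the list was lower than with cisplatin alone. Against the cisplatin group, 40 of 44 members were lower and none higher, all 40 by at least 2-fold. Of all tested genes 35.4% were called, 18.0% lower and 17.4% higher, with 11.3% lower and 7.77% higher by at least 2-fold. The median over the members was -1.82, with a range from -4.50 to 0.35, beside -0.01 over all tested genes. Every YSJZD library lay below every cisplatin library in 41 members and in 23.6% of all tested genes. The 4 members that did not pass the test were Irf1, Cxcl10, Irgm2 and Iigp1.

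Against control, the YSJZD group stood close to the control level for many members and above it for others. Higher than control were 15 members, 11 of them by at least 2-fold, and 1 member, Trim30a, was lower; 28 did not pass the test. Of all tested genes 19.3% were called in this comparison, 9.93% higher and 9.37% lower, with 6.1% higher and 3.95% lower by at least 2-fold. The members' median was 0.58, beside 0.01 over all tested genes. No overlap between the libraries was seen in 17 members above control and 3 below, beside 20.8% and 19.5% of all tested genes. These 3 comparisons share libraries: the cisplatin libraries enter the first and the second, the control libraries the first and the third, and the YSJZD libraries the second and the third. By group means in CPM, 33 members ran from cisplatin through YSJZD down to control, 9 from cisplatin through control down to YSJZD, and Irf1 and Cxcl10 were the 2 whose YSJZD mean was the highest.

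**Figure D1:**
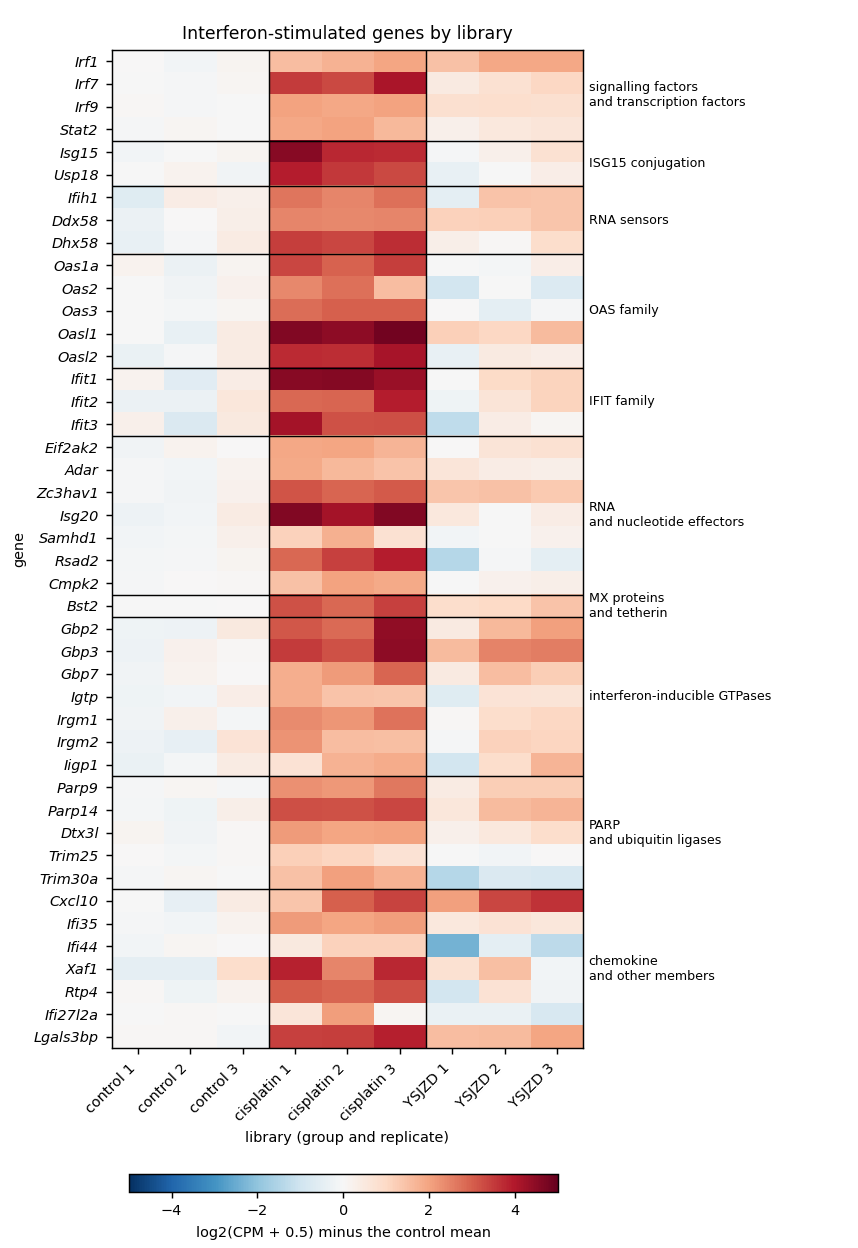
Difference of log2(CPM + 0.5) from the control mean (colour scale) for the 44 members (rows, grouped by role) in the 9 libraries (columns, by group and replicate). The 3 cisplatin columns are red for nearly every row, while the YSJZD columns are pale for most rows and red for Irf1, Cxcl10, Gbp3 and Lgals3bp.

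All 4 transcription factors of the list rose with cisplatin (28.6% of all tested genes). With YSJZD, 3 of the 4 were lower than with cisplatin (18.0%). Irf7 (Entrez 54123), the factor that drives the interferon alpha genes, stood at 23.6, 22.9 and 25.6 CPM in control, at 276, 242 and 416 in cisplatin and at 33.1, 41.6 and 50.1 in YSJZD. The 3 groups did not overlap, and the YSJZD libraries lay much nearer to control than to cisplatin. Its log2 fold change was 3.69 ± 0.24 (SE) for cisplatin against control (adjusted p = 2.55e-06, edgeR), -2.90 ± 0.23 for YSJZD against cisplatin (adjusted p = 4.86e-05, edgeR) and 0.79 ± 0.22 for YSJZD against control (adjusted p = 0.0307, edgeR). The last of these calls was lost without any 1 of the control libraries or without YSJZD replicate 2 or 3, with log2 fold changes from 0.64 to 0.84 and adjusted p from 0.065 to 0.107 (edgeR). Irf9, the DNA-binding partner of STAT2, rose by 2.01 ± 0.11, was lower by -1.2 ± 0.10 with YSJZD against cisplatin, and remained 0.82 ± 0.10 above control (log2). Stat2 itself rose by 1.88 ± 0.15 and was lower by -1.4 ± 0.15 with YSJZD. Against control its value was 0.47 ± 0.15, which missed the threshold (adjusted p = 0.0507, edgeR) and passed without YSJZD replicate 1 (0.58, adjusted p = 0.0317, edgeR), in DESeq2 (adjusted p = 0.0433), in a fit of the 6 libraries compared (adjusted p = 0.0446, edgeR) and when scaled by library totals (0.66, adjusted p = 0.023, edgeR).

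Irf1 (Entrez 16362), a factor induced by interferon gamma and by inflammatory cytokines, went another way. It stood at 9.67, 8.59 and 10.6 CPM in control, 29.2, 33.1 and 39.1 in cisplatin and 27.3, 38.0 and 38.5 in YSJZD. Cisplatin and YSJZD libraries overlapped, and both groups lay wholly above control. The rise was 1.81 ± 0.18 with cisplatin and 1.85 ± 0.18 with YSJZD against control (log2). Between YSJZD and cisplatin the difference was 0.03 with a 95% confidence interval from -0.35 to 0.42 (adjusted p = 0.903, edgeR), so that a fall as large as that of Irf9 lay outside the interval.

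Cxcl10 (Entrez 15945), the chemokine that draws CXCR3-bearing T cells, showed the same order of group means. Its levels were low throughout, at 1.24, 0.801 and 1.85 CPM in control, 4.12, 13.3 and 17.8 in cisplatin and 6.71, 17.2 and 20.9 in YSJZD. The treated groups overlapped each other and not the control group. Against control the log2 fold change was 3.16 ± 0.61 with cisplatin and 3.51 ± 0.62 with YSJZD. YSJZD against cisplatin gave 0.35 with an interval from -0.82 to 1.51 (adjusted p = 0.633, edgeR), which is wide enough to hold a rise or a fall.

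ISG15 conjugation was among the most responsive roles. Isg15 (Entrez 100038882), a ubiquitin-like protein attached to other proteins, stood at 3.13, 3.42 and 3.90 CPM in control, 92.3, 53.9 and 51.9 in cisplatin and 3.27, 4.26 and 6.23 in YSJZD. Usp18 (Entrez 24110), which removes ISG15 and damps the type I receptor, stood at 2.25, 2.69 and 1.98 CPM in control, 42.0, 31.8 and 26.7 in cisplatin and 1.63, 2.23 and 3.02 in YSJZD. For both genes the YSJZD and control libraries overlapped and the cisplatin libraries stood far above them. Isg15 rose by 4.24 ± 0.31 and was lower by -3.85 ± 0.30 with YSJZD against cisplatin; Usp18 gave 3.86 ± 0.28 and -3.86 ± 0.28 (log2). Against control, YSJZD gave 0.39 for Isg15 (95% interval -0.28 to 1.07) and -0.01 for Usp18 (-0.64 to 0.62; 0.18 when scaled by library totals).

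**Figure D2:**
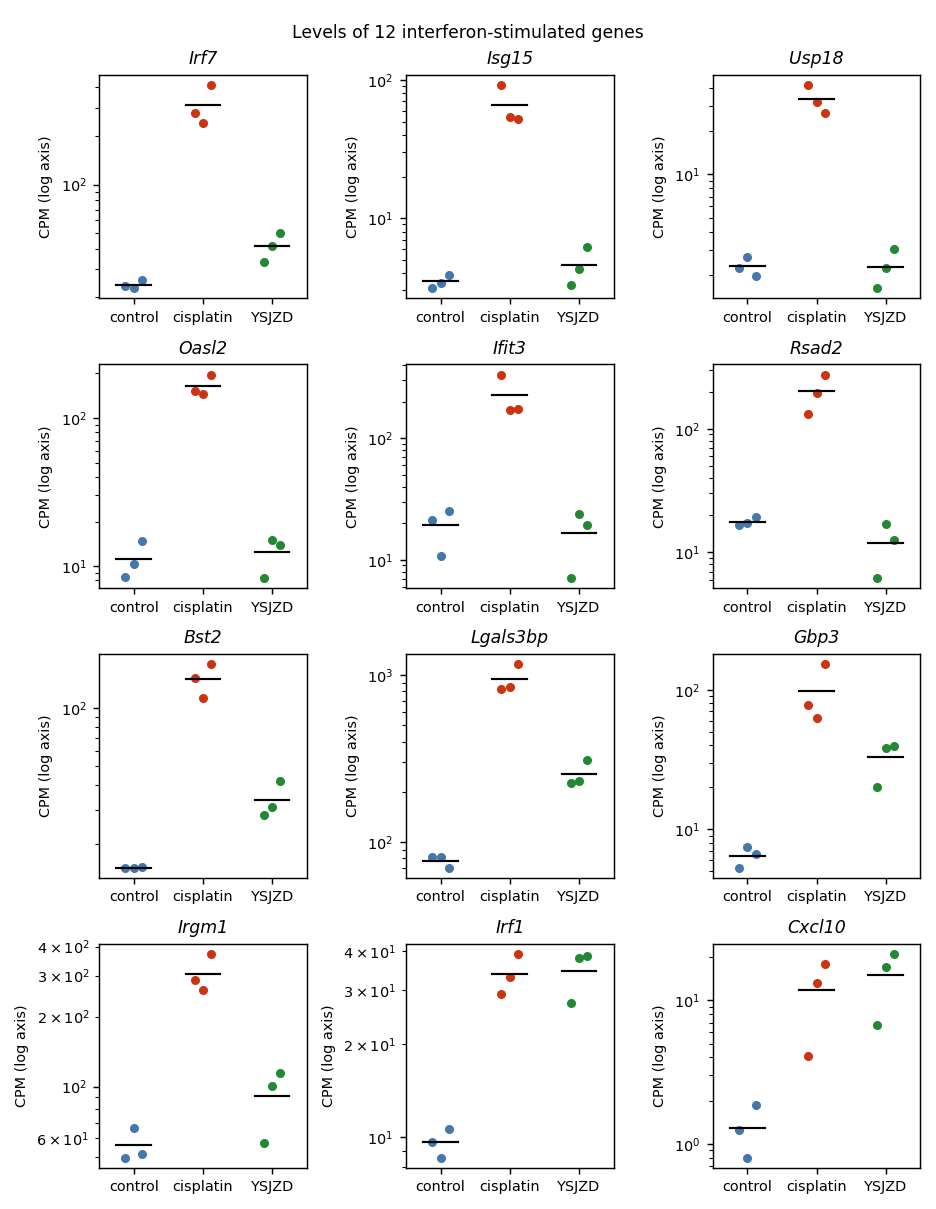
Levels of 12 members in CPM (vertical log axes) in the control, cisplatin and YSJZD groups; points are libraries (n = 3 a group) and bars are group means. Isg15, Usp18, Oasl2, Ifit3 and Rsad2 in YSJZD overlap control, while Irf1 and Cxcl10 in YSJZD overlap cisplatin.

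Of the 3 cytosolic RNA sensors, all rose with cisplatin and all were lower with YSJZD (28.6% and 18.0% of all tested genes). Ddx58 (Entrez 230073), which encodes RIG-I, stood at 18.4, 23.2 and 27.9 CPM in control, 126, 123 and 125 in cisplatin and 51.4, 52.9 and 60.7 in YSJZD. Its YSJZD libraries fell between the other groups without touching either. The log2 fold changes were 2.43 ± 0.16, -1.18 ± 0.15 and 1.25 ± 0.16 for cisplatin against control, YSJZD against cisplatin and YSJZD against control. Dhx58 (LGP2, a regulator of the other sensors) changed more steeply, by 3.73 ± 0.31 and -3.23 ± 0.30, and its YSJZD libraries overlapped control (0.49 ± 0.31). Ifih1 (MDA5, the sensor of long double-stranded RNA) rose by 2.68 ± 0.47, was lower by -1.70 ± 0.44 with YSJZD, and stood 0.98 ± 0.46 above control with overlap (adjusted p = 0.167, edgeR). Without YSJZD replicate 1 that last value was 1.4 and passed (adjusted p = 0.0119, edgeR).

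The OAS family, which includes the enzymes that make the 2-5A messenger that activates RNase L, was higher with cisplatin in 5 of 5 members. It was lower with YSJZD against cisplatin in 5 of 5 (28.6% and 18.0% of all tested genes in these comparisons). Oasl2 (Entrez 23962), which had the highest level of the family per transcript length, stood at 8.44, 10.3 and 14.7 CPM in control, 151, 145 and 196 in cisplatin and 8.34, 15 and 13.9 in YSJZD. Oasl1 (Entrez 231655), known to hold back translation of Irf7, stood at 2.47, 1.82 and 3.51 CPM in control, 74.3, 66.6 and 85.7 in cisplatin and 6.36, 5.64 and 8.6 in YSJZD. Oas3 (Entrez 246727) was scarce and passed the filter on low counts through its cisplatin libraries, at 0.582, 0.510 and 0.662 CPM in control, 6.99, 8.21 and 8.19 in cisplatin and 0.584, 0.262 and 0.534 in YSJZD. The Oas3 calls are included in the counts of the family and carry that limit. Oasl1 alone of the 5 stayed above control with YSJZD, by 1.39 ± 0.25 on the log2 scale, although it lies next to Oasl2, whose value was 0.15 ± 0.26; the difference between these neighbours was not tested. With cisplatin the log2 rises were 4.85 ± 0.26 for Oasl1, 3.88 ± 0.28 for Oasl2, 3.72 ± 0.34 for Oas3, 3.38 ± 0.22 for Oas1a and 2.45 ± 0.36 for Oas2. With YSJZD against cisplatin they lay between -4.05 for Oas3 and -3.04 for Oas2. RSEM divides reads among transcripts of similar sequence, so the split within the OAS, IFIT, GBP and IRG families is uncertain.

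The IFIT proteins, which hold foreign RNA away from the ribosome, followed the same course. Ifit1 (Entrez 15957) stood at 2.84, 1.53 and 3.37 CPM in control, 69.7, 70.8 and 58.2 in cisplatin and 2.45, 5.31 and 5.93 in YSJZD. Ifit3 (Entrez 15959) stood at 21.4, 10.7 and 25.4 CPM in control, 333, 170 and 174 in cisplatin and 7.12, 23.7 and 19.4 in YSJZD. Cisplatin lay above both other groups in each, and YSJZD overlapped control. Log2 rises with cisplatin were 4.67 ± 0.35 for Ifit1, 3.32 ± 0.43 for Ifit2 and 3.56 ± 0.48 for Ifit3, and YSJZD against cisplatin gave -3.86 ± 0.33, -2.74 ± 0.41 and -3.76 ± 0.49. None of the 3 passed against control; Ifit1 did so without YSJZD replicate 1 (1.12, adjusted p = 0.0299, edgeR).

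Effectors that act on RNA and nucleotides were higher with cisplatin in 7 of 7 (28.6% of all tested genes). With YSJZD against cisplatin 7 of 7 were lower (18.0%). Isg20 (Entrez 57444), an exonuclease, stood at 1.09, 1.24 and 2.05 CPM in control, 46.4, 34.2 and 47.5 in cisplatin and 2.28, 1.38 and 1.96 in YSJZD. Rsad2 (Entrez 58185), which encodes viperin, stood at 16.7, 17.2 and 19.3 CPM in control, 132, 195 and 274 in cisplatin and 6.24, 17.1 and 12.5 in YSJZD. For each of these the YSJZD libraries overlapped control, and those of Rsad2 reached below it. Isg20 had the deepest fall of the list with YSJZD against cisplatin, -4.50 ± 0.28 (22.7-fold lower), and Rsad2 followed at -4.07 ± 0.37 (16.8-fold lower). Cmpk2, a mitochondrial nucleotide kinase beside Rsad2 in the genome, moved less, by 1.85 ± 0.17 and -1.67 ± 0.17. Zc3hav1 (ZAP, which binds CpG-rich RNA) rose by 3.08 ± 0.14, was lower by -1.66 ± 0.13 with YSJZD against cisplatin, and stood 1.41 ± 0.13 above control. The rises with cisplatin were smaller for Eif2ak2 (PKR, which stops translation), Adar (the RNA editing enzyme) and Samhd1 (which destroys nucleotides), at 1.90 ± 0.20, 1.67 ± 0.16 and 1.3 ± 0.25. With YSJZD these 3 were lower than with cisplatin by between -1.37 and -1.25 and did not pass against control; Eif2ak2 did so without YSJZD replicate 1 (0.73, adjusted p = 0.0158, edgeR), and Eif2ak2 and Adar did so when scaled by library totals (0.71 and 0.61, adjusted p = 0.0438 and 0.0388, edgeR).

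A surface protein and a secreted one, Bst2 and Lgals3bp, were among the most abundant members per transcript length. Bst2 (Entrez 69550), tetherin, which ties virus particles to the cell, stood at 15.1, 15.1 and 15.2 CPM in control, 143, 113 and 167 in cisplatin and 28.1, 30.8 and 41.9 in YSJZD. Lgals3bp (Entrez 19039), a secreted galectin-binding glycoprotein, stood at 81.2, 80.8 and 70.1 CPM in control, 826, 845 and 1158 in cisplatin and 225, 233 and 308 in YSJZD. In both genes the 3 groups were fully apart, with YSJZD in between. Bst2 gave log2 fold changes of 3.21 ± 0.20, -2.07 ± 0.19 and 1.15 ± 0.19 for cisplatin against control, YSJZD against cisplatin and YSJZD against control, and Lgals3bp gave 3.61 ± 0.20, -1.89 ± 0.19 and 1.72 ± 0.19. Per transcript length, in FPKM, Lgals3bp had the highest mean level of the list in each group (34.9, 495 and 132 in control, cisplatin and YSJZD) and Oas3 the lowest (0.117, 1.82 and 0.103). Bst2 followed Lgals3bp in cisplatin at 242 FPKM, then Irf7 at 198, Irgm1 at 162, Ifit3 at 132 and Isg15 at 118.

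The interferon-inducible GTPases, some of which attack the vacuoles of intracellular microbes, were higher with cisplatin in 7 of 7 (28.6% of all tested genes). They were lower with YSJZD against cisplatin in 5 of 7 (18.0%) and above control with YSJZD in 2 of 7 (9.93%). Irgm1 (Entrez 15944), the most abundant of them per length, stood at 49.5, 66.6 and 51.5 CPM in control, 286, 259 and 370 in cisplatin and 57.3, 101 and 114 in YSJZD. Gbp3 (Entrez 55932) stood at 5.31, 7.43 and 6.62 CPM in control, 77.4, 62.7 and 152 in cisplatin and 20.1, 38.4 and 39.8 in YSJZD. Irgm1 in YSJZD reached into the control range with 1 library, whereas Gbp3 in YSJZD lay between the other groups. Irgm1 rose by 2.45 ± 0.26 and was lower by -1.75 ± 0.25 with YSJZD against cisplatin. Gbp3 rose by 3.91 ± 0.39, was lower by -1.57 ± 0.34 with YSJZD against cisplatin, and stood 2.34 ± 0.37 above control (5.07-fold). Gbp7, its neighbour, rose by 2.40 ± 0.34 and stayed 1.16 ± 0.33 above control (adjusted p = 0.0342, edgeR), a call lost without any 1 of the control libraries or without YSJZD replicate 2 or 3 (0.91 to 1.25, adjusted p from 0.0747 to 0.118, edgeR) and in limma-voom (adjusted p = 0.0801). Gbp2 rose by 3.73 ± 0.54, or by 3.05 without cisplatin replicate 3, and was lower with YSJZD against cisplatin by -2.16 ± 0.50, or by -1.49 without that library. Against control, YSJZD gave 1.56 ± 0.52 for Gbp2 and 0.70 ± 0.25 for Irgm1, neither of which passed (adjusted p = 0.0617 and 0.0777, edgeR). Both passed without YSJZD replicate 1 (1.91 and 0.95, adjusted p = 0.0362 and 0.0142, edgeR), in DESeq2 (adjusted p = 0.00984 and 0.0469) and when scaled by library totals (adjusted p = 0.0356 and 0.0289, edgeR), and Gbp2 also in a fit of the 6 libraries compared (adjusted p = 0.0267, edgeR).

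The other 3 GTPases, of the IRG kind, were less responsive. Igtp rose by 1.56 ± 0.32 and was lower with YSJZD by -1.23 ± 0.31 (log2). Irgm2, next to Igtp in the genome, rose by 1.74 ± 0.39; with YSJZD against cisplatin its libraries lay below without overlap, yet the value of -1.01 ± 0.38 missed the threshold (adjusted p = 0.0599, edgeR) and passed in DESeq2 (adjusted p = 0.0257) and limma-voom (adjusted p = 0.0398). Iigp1 (Entrez 60440) stood at 3.93, 4.73 and 7.01 CPM in control, 8.73, 18.3 and 19.8 in cisplatin and 2.45, 9.84 and 17.7 in YSJZD. The YSJZD libraries spread over the range of both other groups. Its rise with cisplatin, 1.57 ± 0.58 (adjusted p = 0.042, edgeR), was lost without any 1 of the control libraries or without cisplatin replicate 2 or 3 (1.37 to 1.84, adjusted p from 0.0566 to 0.131, edgeR) and in limma-voom (adjusted p = 0.0805). YSJZD against cisplatin gave -0.64 with an interval from -1.89 to 0.61.

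PARP enzymes and ubiquitin ligases were higher with cisplatin in 5 of 5 (28.6% of all tested genes). They were lower with YSJZD against cisplatin in 5 of 5 (18.0%). Trim25 (Entrez 217069), the ligase that activates RIG-I, was the member with the smallest rise among those called: it stood at 91.8, 84.8 and 92.4 CPM in control, 207, 187 and 147 in cisplatin and 88.9, 82.2 and 91.3 in YSJZD. That is a rise of 1.01 ± 0.14 (2.01-fold), and the YSJZD libraries overlapped control with a log2 difference of -0.04 (interval -0.35 to 0.28; 0.15 when scaled by library totals). Parp14, Parp9 and Dtx3l, a mono-ADP-ribosyltransferase and the PARP9-DTX3L ligase pair, lie side by side, and the spans of Dtx3l and Parp9 overlap, so reads there may be shared. They rose by 3.27 ± 0.28, 2.40 ± 0.23 and 2.07 ± 0.18. With YSJZD they were lower than with cisplatin by -1.89 ± 0.26, -1.39 ± 0.22 and -1.48 ± 0.17, and above control by 1.38 ± 0.27, 1.02 ± 0.22 and 0.59 ± 0.17. The Dtx3l value against control (adjusted p = 0.0393, edgeR) lost its call without any 1 of the control libraries or without YSJZD replicate 2 or 3 (0.41 to 0.66, adjusted p from 0.0716 to 0.14, edgeR), in limma-voom (adjusted p = 0.0675) and in a fit of the 6 libraries compared (adjusted p = 0.0519, edgeR). Trim30a, known to restrain NF-kB signalling, rose by 1.84 ± 0.24 with cisplatin. With YSJZD it was lower than with cisplatin by -2.91 ± 0.25 and lower than control by -1.07 ± 0.25 (adjusted p = 0.0143, edgeR), with libraries at 2.04, 3.54 and 3.32 CPM beside 5.96, 6.63 and 6.15 in control.

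The remaining members were Ifi35, Xaf1, Rtp4, Ifi44 and Ifi27l2a. Ifi35, a partner of the signalling protein NMI, rose by 2.10 ± 0.13, was lower by -1.48 ± 0.13 with YSJZD against cisplatin, and stood 0.62 ± 0.13 above control. Xaf1, a pro-apoptotic protein, rose by 3.43 ± 0.57, or by 4.09 without control replicate 3, and Rtp4, a chaperone of receptors, by 3.13 ± 0.36. With YSJZD against cisplatin they were lower by -2.68 ± 0.54 and -3.12 ± 0.36, and their YSJZD libraries overlapped control. Ifi44 (Entrez 99899) stood at 10.4, 12.5 and 11.8 CPM in control, 16.4, 26.0 and 26.0 in cisplatin and 1.81, 8.13 and 4.33 in YSJZD. It was the 1 member not called with cisplatin (0.97 ± 0.40, adjusted p = 0.063, edgeR), though its libraries did not overlap, and it passed without cisplatin replicate 1 (1.17, adjusted p = 0.0485, edgeR) and in 5 of the 8 other settings run. These included DESeq2 (adjusted p = 0.0413), limma-voom (adjusted p = 0.0337), a fit of the 6 libraries compared (adjusted p = 0.00634, edgeR) and scaling by library totals (1.19, adjusted p = 0.0287, edgeR). With YSJZD it lay below both other groups, by -2.27 ± 0.43 against cisplatin (-2.89 without YSJZD replicate 2) and by -1.29 ± 0.42 against control, where the test was missed (adjusted p = 0.0571, edgeR) and passed without YSJZD replicate 2 (-1.91, adjusted p = 0.00961, edgeR), in DESeq2 (adjusted p = 0.014) and in limma-voom (adjusted p = 0.0384). Ifi27l2a (Entrez 76933) stood at 6.40, 6.70 and 6.42 CPM in control, 10.2, 29.4 and 7.01 in cisplatin and 5.08, 5.12 and 3.56 in YSJZD. Its rise of 1.25 ± 0.45 (adjusted p = 0.0374, edgeR) rested on cisplatin replicate 2: without that library it was 0.41 (adjusted p = 0.232, edgeR), and the call was also lost without any 1 of the control libraries (adjusted p from 0.0831 to 0.0963, edgeR), in limma-voom (adjusted p = 0.12) and in a fit of the 6 libraries compared (adjusted p = 0.0639, edgeR). YSJZD against cisplatin gave -1.76 ± 0.46, or -0.91 without cisplatin replicate 2, and lost its call without YSJZD replicate 3 (-1.60, adjusted p = 0.0578, edgeR).

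**Figure D3:**
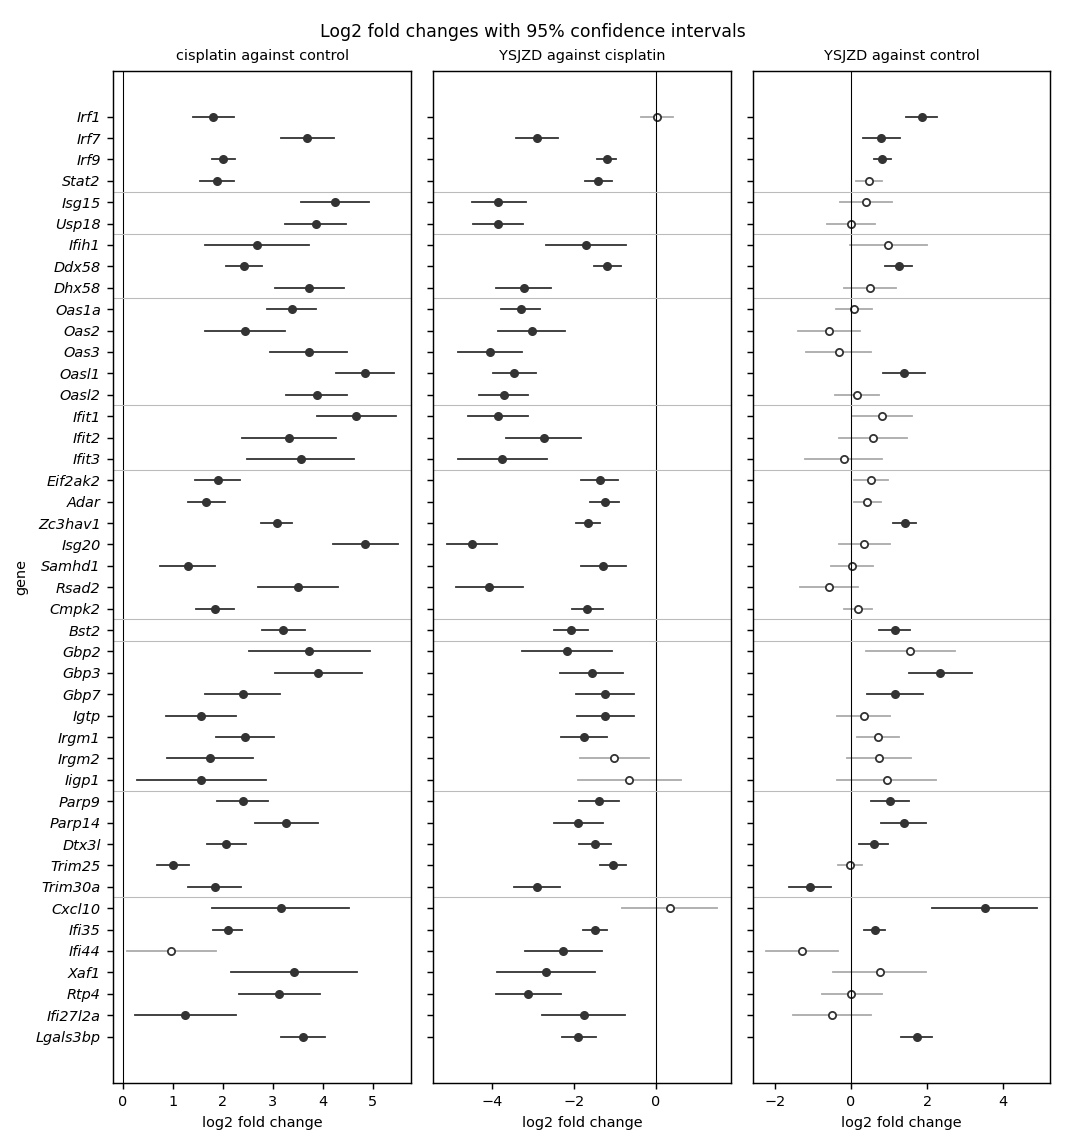
Log2 fold changes (horizontal axes) of the 44 members with 95% confidence intervals in the 3 comparisons; filled points passed an adjusted p under 0.05 (edgeR) and open points did not. All points lie above 0 and all but that of Ifi44 are filled for cisplatin against control, and Irf1 and Cxcl10 sit at 0.03 and 0.35 for YSJZD against cisplatin.

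The promoters are shown to describe the letters near the transcript starts of the members. The list is one of interferon-stimulated genes. A larger share with the interferon-stimulated response element can thus come from that choice alone, whatever the groups did. RefSeq windows on GRCm38.p6, from 250 bases before to 50 after a transcript start, were found for 36 of the 46 members, and none was found for Usp18, Dhx58, Oas2, Mx1, Mx2, Iigp1, Parp9, Parp14, Rtp4 and Ifi27l2a. The core of the interferon-stimulated response element, searched as GAAA, any 2 bases and GAAA again, occurred on either strand in 19 of these 36 members (52.8%) and in 3.99% of all 27025 genes with a window; by window the counts were 20 of 45 and 3.44% of 32851. The letters TTCNNNGAA of the gamma-activated sequence occurred in 12 of 36 members (33.3%) and in 9.55% of all genes. The 2 motifs can overlap, since both hold GAA. The 19 members with the first motif had a median log2 fold change of 3.16 for cisplatin against control and of -1.75 for YSJZD against cisplatin, and the 17 without it had 2.10 and -1.67; a match is a description of letters only. The 200 bases before the start are printed 5′ to 3′ on the gene's strand for 6 members with per-library values, with matches to this core, on either strand, in capitals; capitals run on where matches overlap. They are Bst2 (chr8:71537473-71537672, minus strand), Irgm1 (chr11:48871421-48871620, minus), Ifit3 (chr19:34583329-34583528, plus), Isg15 (chr4:156200819-156201018, minus), Rsad2 (chr12:26456453-26456652, minus) and Gbp3 (chr3:142559844-142560043, plus).
Bst2: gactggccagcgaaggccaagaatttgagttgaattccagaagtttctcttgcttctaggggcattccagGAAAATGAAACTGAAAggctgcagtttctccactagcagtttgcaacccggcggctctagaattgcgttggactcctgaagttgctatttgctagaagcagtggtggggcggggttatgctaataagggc
Irgm1: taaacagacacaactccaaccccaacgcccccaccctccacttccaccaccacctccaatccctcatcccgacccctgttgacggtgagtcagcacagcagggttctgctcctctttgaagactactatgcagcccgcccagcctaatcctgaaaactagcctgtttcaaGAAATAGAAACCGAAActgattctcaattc
Ifit3: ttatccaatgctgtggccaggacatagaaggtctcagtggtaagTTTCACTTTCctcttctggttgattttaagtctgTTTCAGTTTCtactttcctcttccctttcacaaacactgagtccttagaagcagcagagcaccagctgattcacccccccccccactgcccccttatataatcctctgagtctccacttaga
Isg15: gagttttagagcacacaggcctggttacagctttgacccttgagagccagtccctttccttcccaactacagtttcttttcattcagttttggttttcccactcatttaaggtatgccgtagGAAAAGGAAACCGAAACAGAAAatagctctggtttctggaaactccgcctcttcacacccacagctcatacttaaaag
Rsad2: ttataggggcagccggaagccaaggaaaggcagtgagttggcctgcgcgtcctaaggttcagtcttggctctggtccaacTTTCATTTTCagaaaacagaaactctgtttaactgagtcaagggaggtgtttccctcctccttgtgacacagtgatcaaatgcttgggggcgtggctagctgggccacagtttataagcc
Gbp3: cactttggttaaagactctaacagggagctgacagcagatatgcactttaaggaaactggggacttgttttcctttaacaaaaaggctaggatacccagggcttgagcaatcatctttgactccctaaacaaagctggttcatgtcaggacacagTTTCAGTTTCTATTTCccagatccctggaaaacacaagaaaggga

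Isg15 held 3 overlapping matches, at 78, 72 and 66 bases before its start, Bst2, Irgm1, Ifit3 and Gbp3 held 2 each, and Rsad2 held 1, at 120 bases before. In Irgm1 and Gbp3 the matches lay close to the start, at 30 and 24 and at 45 and 39 bases before it. Among these genes, Gbp3 stood 5.07-fold above control with YSJZD and Rsad2 overlapped control. Irf1 and Cxcl10, whose YSJZD means were above their cisplatin means, are printed as well, a choice made after their values were seen. Cxcl10 (chr5:92348890-92349139, minus strand, 250 bases) held 1 match to the response element core at 213 bases before the start, in capitals. Irf1 (chr11:53769814-53770013, plus strand, 200 bases) held no such match in its windows and 1 match to TTCNNNGAA at 90 bases before the start, in capitals.
Cxcl10: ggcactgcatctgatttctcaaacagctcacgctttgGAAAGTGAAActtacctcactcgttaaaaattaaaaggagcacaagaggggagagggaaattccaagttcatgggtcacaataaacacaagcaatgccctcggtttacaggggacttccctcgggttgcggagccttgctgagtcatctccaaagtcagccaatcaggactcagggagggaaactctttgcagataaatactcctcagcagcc
Irf1: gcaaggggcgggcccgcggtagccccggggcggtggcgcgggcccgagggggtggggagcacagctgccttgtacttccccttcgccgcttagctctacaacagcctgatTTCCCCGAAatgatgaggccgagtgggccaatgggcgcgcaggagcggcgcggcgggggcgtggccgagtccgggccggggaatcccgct

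Libraries of a group did not respond alike. The median over the 44 members of the log2 difference from the control mean was 2.57, 2.61 and 2.96 in the cisplatin libraries and 0.04, 0.71 and 0.78 in the YSJZD libraries. YSJZD replicate 1 was the lowest of its group in 34 of the 44 members. In that library the 3 injury genes summed to 1398 CPM, beside 395 and 788 in the other YSJZD libraries, and the proximal tubule markers to 6470 CPM, beside 12451 and 10541. So the YSJZD library with the lowest interferon-stimulated genes had the highest injury genes, while among all 9 libraries the cisplatin ones were highest in both. Without YSJZD replicate 1, 21 members in place of 15 were higher than control, and 40 were again lower than in cisplatin. In that fit 1876 of all 14200 tested genes were called against control, 51.8% of them higher. Against cisplatin 4871 were called, 50.1% of them higher. With all libraries 2694 and 4942 of 13954 genes were called.

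Macrophage and neutrophil marker sums were higher in cisplatin than in the other groups, as the members were, and those of T and NK cells and of B cells were not. A sum of 12 macrophage and monocyte markers was between 115 and 167 CPM in control, 749, 2017 and 395 in the cisplatin libraries and between 113 and 164 in YSJZD; 8 of the 12 were higher with cisplatin and 9 lower with YSJZD against cisplatin (of all tested genes 28.6% and 18.0%). Lyz2 alone gave 297, 1163 and 128 CPM of the cisplatin sums. Csf1r, Cx3cr1, Ccr2 and Ly6c2 were not called with cisplatin. Csf1r stood at 73.3, 57.1 and 73.0 CPM in control and at 62.6, 130 and 31.1 in cisplatin. The mean of Cx3cr1 was 5.15 CPM in control and 3.78 in cisplatin. Neutrophil markers, 10 in the table, summed to between 1.38 and 1.75, between 38.4 and 102, and between 3.79 and 8.75 CPM, with Camp at 0 counts in control and Mpo at 0 in cisplatin. Most neutrophil genes that were tested had few counts outside the cisplatin group and passed the filter through it, so their calls are not counted. Plasmacytoid dendritic cell markers, a cell type that makes much interferon alpha, summed to between 1.89 and 2.91, between 6.89 and 13.6, and between 1.64 and 3.15 CPM. The higher cisplatin sum lay in Il3ra (mean 1.36 CPM in control and 7.65 in cisplatin) and Ly6d (0.732 and 2.35, not called), while Siglech (0.265 and 0.173) and Ccr9 (0.146 and 0.113) were no higher. Markers of T and NK cells summed to between 2.51 and 14.5 CPM in control, between 1.05 and 2.34 in cisplatin and between 2.16 and 6.34 in YSJZD. Among them Cd8a was lower with cisplatin than in control (-5.22 ± 1.45, adjusted p = 0.0116, edgeR) and higher with YSJZD than with cisplatin (4.78 ± 1.46, adjusted p = 0.0278, edgeR). Cd8a stood at 9.53, 1.67 and 0.397 CPM in control, 0.0542, 0.228 and 0 in cisplatin and 3.15, 0.328 and 4.98 in YSJZD. It thus made up 9.53 of the 14.5 CPM in control replicate 1, where Cd3e, Cd3d and Cd3g stood at 0.436, 0.291 and 0.364. How the Cd8a calls fare without 1 library is not reported here. B cell markers summed to between 0.947 and 1.16, between 0.31 and 1.43, and between 0.408 and 0.853 CPM. Endothelial markers summed to between 310 and 371, between 161 and 341, and between 169 and 188 CPM. Cisplatin replicate 3 had the lowest macrophage sum of its group, 395 CPM, and the highest median over the members, 2.96, while replicate 2 had a macrophage sum of 2017 CPM and a median of 2.61. The part of these cells in the members' changes was not tested.

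**Figure D4:**
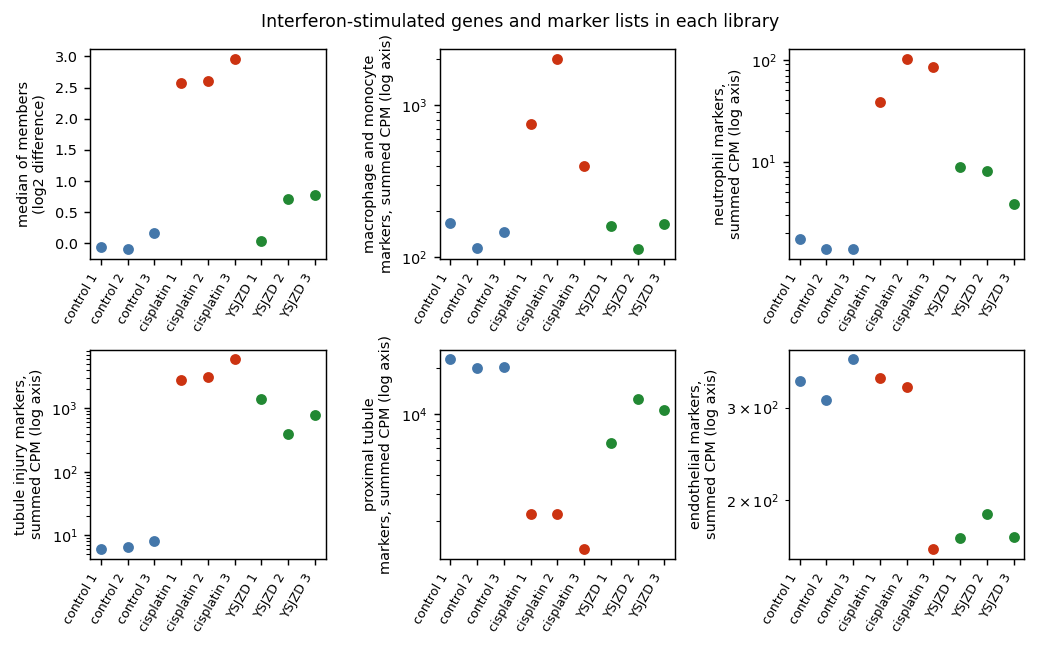
For each of the 9 libraries (horizontal axis), the median log2 difference of the 44 members from the control mean and the summed CPM (log axes) of 5 marker lists; colours mark the groups. YSJZD replicate 1 has the lowest member median of its group (0.04) and the highest injury sum (1398 CPM).

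Few reads were assigned to the interferon genes that had a row. Of 20 ligand genes searched, 6 had a row (Ifnb1, Ifna13, Ifnab, Ifnk, Ifng and Ifnl3), and their expected counts came to 2 in control, 4 in cisplatin and 3 in YSJZD over all libraries of a group. None of these 6 genes had more than 3 counts in any library, and none was tested. The other ligand genes had no row and were not assessed. A count of 0 over a group allows up to 3 counts, or 0.064, 0.0614 and 0.0631 CPM in control, cisplatin and YSJZD, counting error only. Transcripts of the 6 genes below that level were not detectable at this depth.

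The receptors rose with cisplatin, the interferon gamma receptor most, and 3 of the 6 receptor genes by at least 2-fold. Of all tested genes, 28.6% were higher with cisplatin, 18.6% by at least 2-fold. All 6 receptor genes were higher than control: Ifngr1 by 2.58 ± 0.21, Ifngr2 by 2.15 ± 0.21, Ifnlr1 (for interferon lambda) by 2.01 ± 0.26, Ifnar1 by 0.59 ± 0.11, Ifnar2 by 0.59 ± 0.13 and Il10rb by 0.41 ± 0.12 (log2; the last lost its call without control replicate 3, 0.35, adjusted p = 0.0507, edgeR). Ifngr1 stood at 30.5, 25.9 and 21.4 CPM in control, 126, 168 and 171 in cisplatin and 66.5, 45.2 and 66.7 in YSJZD, 3 ranges without overlap. With YSJZD, 5 of the 6 were lower than with cisplatin (18.0% of all tested genes). Ifngr1, Ifngr2 and Ifnlr1 remained above control by 1.2 ± 0.20, 1.39 ± 0.20 and 0.97 ± 0.26 (9.93% of all tested genes were higher there). For YSJZD against cisplatin, the Ifngr2 value of -0.77 lost its call without YSJZD replicate 2 (-0.66, adjusted p = 0.0581, edgeR) or 3 (-0.72, adjusted p = 0.0551, edgeR), and the Ifnar1 value of -0.47 without YSJZD replicate 3 (-0.43, adjusted p = 0.05, edgeR). The Ifnlr1 value against control lost its call without control replicate 1 or 2 or YSJZD replicate 1 or 2 (0.87 to 0.99, adjusted p from 0.0591 to 0.0941, edgeR) and in limma-voom (adjusted p = 0.0687). Among the kinases, Jak2 rose by 0.71 ± 0.19 and was lower with YSJZD against cisplatin by -0.56 ± 0.19, a call lost without any 1 of the cisplatin libraries or without YSJZD replicate 1 or 2 (-0.65 to -0.36, adjusted p from 0.054 to 0.0924, edgeR), with no filter (adjusted p = 0.0534, edgeR) and in a fit of the 6 libraries compared (adjusted p = 0.076, edgeR). Jak1 and Tyk2 gave 0.14 and 0.27 and did not pass.

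Sensors, adaptors, kinases and transcription factors upstream of interferon were higher with cisplatin in 9 of 15 genes. With YSJZD against cisplatin 9 of 15 were lower (28.6% and 18.0% of all tested genes in the 2 comparisons). Tmem173, which encodes STING, stood at 2.84, 2.99 and 2.32 CPM in control, 13.8, 25.8 and 23.6 in cisplatin and 11.2, 10.3 and 10.7 in YSJZD. The rise was 2.96 ± 0.26, and with YSJZD it remained 1.98 ± 0.26 above control. Zbp1, a sensor of Z-form nucleic acid that can start necroptosis, stood at 1.75, 1.89 and 2.91 CPM in control, 8.13, 14.4 and 22.6 in cisplatin and 0.934, 1.38 and 1.84 in YSJZD, and so overlapped control with YSJZD. The kinase gene Ikbke rose by 2.82 ± 0.28, the adaptor Myd88 by 1.73 ± 0.17 and the double-stranded RNA receptor Tlr3 by 1.53 ± 0.20. Tlr7 and Aim2 rested in part on cisplatin replicate 2: their rises of 3.11 ± 0.66 and 2.79 ± 0.67 were 2.23 and 1.68 without it. Aim2 had 19 counts over the control libraries, 163 over cisplatin and 28 over YSJZD. It passed the filter on low counts through its cisplatin libraries, and its calls are included in the counts with that limit. Cgas rose by 1.61 ± 0.50 with overlapping libraries and lost its call without control replicate 1 or 3 or cisplatin replicate 1 or 2 (1.3 to 1.49, adjusted p from 0.0561 to 0.0741, edgeR). Traf3 rose by 0.44 ± 0.16, a call lost without any 1 of the control libraries or without cisplatin replicate 1 (0.31 to 0.50, adjusted p from 0.0545 to 0.138, edgeR). With YSJZD against cisplatin, calls were lost for Cgas without cisplatin replicate 1 or 2 or YSJZD replicate 2 or 3 (-1.62 to -1.34, adjusted p from 0.0733 to 0.093, edgeR). Aim2 lost its call of -2.43 there without cisplatin replicate 2 (-1.31, adjusted p = 0.0577, edgeR) or YSJZD replicate 1 or 3 (adjusted p = 0.0526 and 0.0524, edgeR), and Myd88 its call of -0.59 without cisplatin replicate 3 or YSJZD replicate 3 (-0.49 and -0.43, adjusted p = 0.0537 and 0.0761, edgeR) and in a fit of the 6 libraries compared (adjusted p = 0.0507, edgeR). Tlr9, Ticam1, Mavs, Tbk1, Irf3 and Irf5 did not pass with cisplatin, with values from -0.28 to 0.81. Irf5, a factor of myeloid cells, was lower with YSJZD than with cisplatin by -1.33 ± 0.24 and than control by -1.02 ± 0.24, the latter call lost without control replicate 1 (-0.94, adjusted p = 0.0582, edgeR) or 3 (-0.91, adjusted p = 0.0527, edgeR).

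Brakes on the pathway were higher with cisplatin in 5 of 6 (28.6% of all tested genes). Socs3, a feedback inhibitor of JAK kinases that answers chiefly to interleukin 6 type cytokines, stood at 0.873, 1.46 and 2.18 CPM in control, 65.3, 93.7 and 118 in cisplatin and 26.6, 16.7 and 23.5 in YSJZD. The groups were fully apart, with log2 fold changes of 5.92 ± 0.36, -2.05 ± 0.28 and 3.87 ± 0.34 for cisplatin against control, YSJZD against cisplatin and YSJZD against control. Trex1, the nuclease that clears cytosolic DNA, stood at 4.73, 3.42 and 4.50 CPM in control, 25.2, 27.2 and 25.8 in cisplatin and 3.85, 4.79 and 4.33 in YSJZD, and its YSJZD libraries overlapped control (0.03, interval -0.38 to 0.45). Socs1, Pias3 and Irf2 rose by 1.70 ± 0.48, 1.11 ± 0.29 and 0.78 ± 0.14, the Socs1 call being lost without control replicate 1 (1.54, adjusted p = 0.0532, edgeR), and Pias1 gave -0.12 and did not pass. Over the whole pathway list, 22 of 31 tested genes were higher with cisplatin and none lower, 19 were lower and none higher with YSJZD against cisplatin, and 9 were higher and 1 lower with YSJZD against control. Of all tested genes, 28.6% and 26.0% were higher and lower in the first comparison, 17.4% and 18.0% in the second, and 9.93% and 9.37% in the third. The medians of the list were 1.11, -0.77 and 0.19, beside 0.04, -0.01 and 0.01. Of the 9 pathway genes higher with YSJZD than control, Mavs lost its call without any 1 of the control libraries or without YSJZD replicate 1 (0.42 to 0.71, adjusted p from 0.0808 to 0.143, edgeR). Ikbke lost it without any 1 of the control libraries or without YSJZD replicate 1 or 3 (0.87 to 1.05, adjusted p from 0.0764 to 0.115, edgeR) and in limma-voom (adjusted p = 0.152), and Pias3 without control replicate 1 or 2 (1.25 and 1.26, adjusted p = 0.0587 and 0.0519, edgeR).

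**Figure D5:**
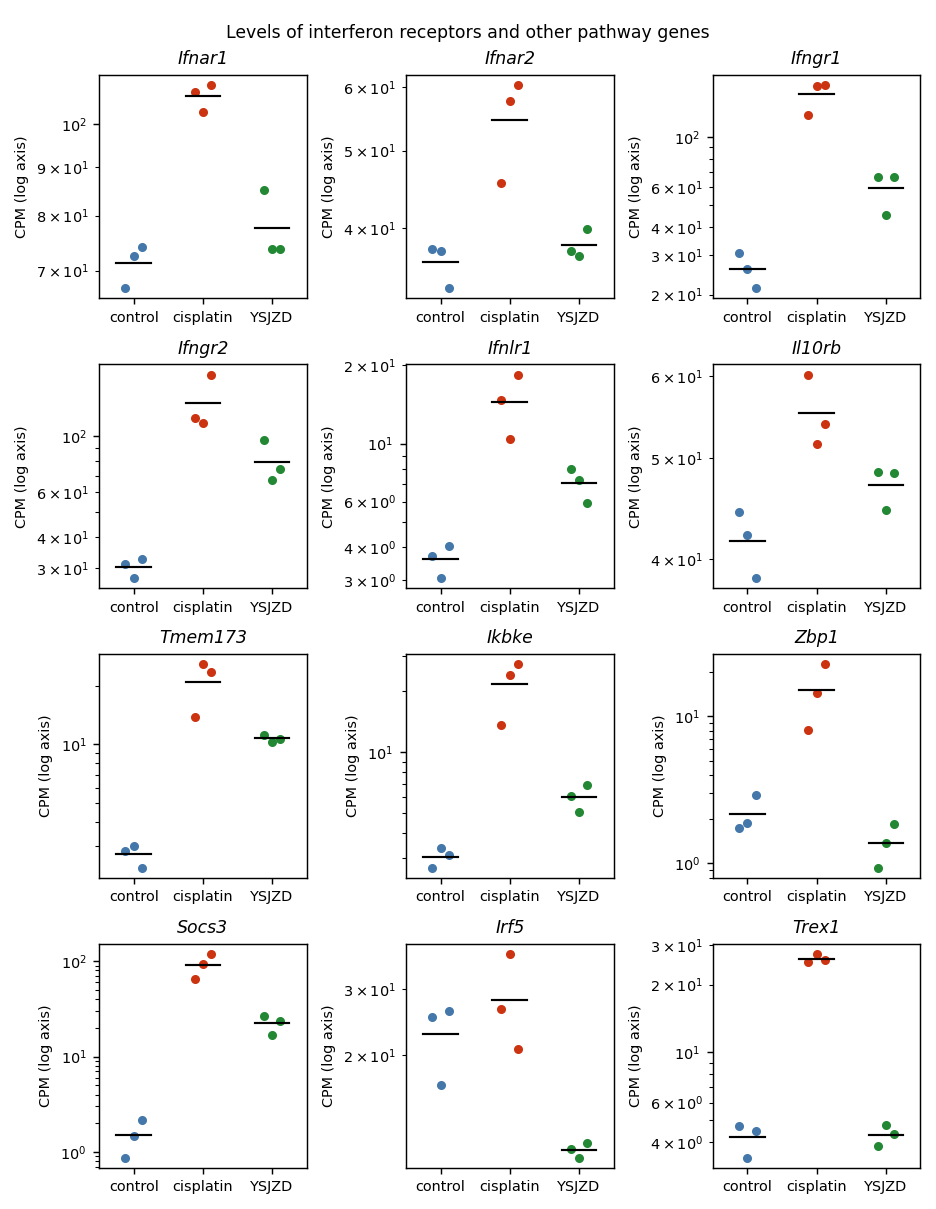
Levels in CPM (vertical log axes) of the 6 interferon receptor genes, Tmem173, Ikbke, Zbp1, Socs3, Irf5 and Trex1 in the control, cisplatin and YSJZD groups; points are libraries (n = 3 a group) and bars are group means. Ifngr1, Ifngr2, Ifnlr1, Tmem173 and Socs3 in YSJZD stay above control, while Trex1 overlaps it.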

How the data were processed

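The labels describe total RNA of 9 mouse kidney samples, sequenced on a DNBSEQ platform. The authors deposited a table of 58075 transcripts; its read counts, so named per the file headers, were treated here like RSEM's expected counts because RSEM 1.3.1 is named per the submitters' processing notes, beside DESeq2 1.4.5. The read counts deposited by the authors are thus expected counts, not scaled. The notes name GRCh38, a human build; the aligner, like the mouse build and the strand setting of the counting, was not given in the sources used here. The deposited expression columns were read as FPKM from their values, and served only to compare levels between genes.

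For each Entrez gene the transcripts' expected counts were added up, and the sums were rounded. Symbols came from RefSeq for 17847 of 17963 genes, and 116 had none. The filterByExpr filter of edgeR 4.0.16 (R 4.3.3, limma 3.58.1) removed 4009 genes. TMM factors ran from 0.855 to 1.105. The quasi-likelihood test was fitted to all 9 libraries with group as the only term, with Benjamini-Hochberg adjustment over 13954 genes, and called genes at an adjusted p under 0.05. The common biological coefficient of variation was 0.234. Errors of fold changes are SE. DESeq2 1.42.0 and limma-voom were alternatives.

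The members and all gene lists were chosen with earlier results of these data known. Every member is named; values by library are given for the member of highest mean FPKM in each role, the 5 highest and 3 lowest fold changes with cisplatin, the 5 lowest and 3 highest with YSJZD against cisplatin, and members not called with cisplatin. Pathway genes are named where detected. Promoters were printed for up to 6 such members with a match to the response element core, in order of mean FPKM. Some genes of the pathway and marker lists are not reported here.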

Additional observations from a re-analysis of the deposited data

How the results depend on the processing

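The counts of members higher with cisplatin and lower with YSJZD against cisplatin kept within 1.5 times the reported counts under every alternative run: 42 to 44 and 40 to 41 under other scaling, filters, tests and fits, and 41 to 44 and 39 to 40 without 1 library. Members higher than control with YSJZD numbered 13 to 20, and 12 to 21 without 1 library. Members lower than control with YSJZD numbered 2 in place of 1 in DESeq2, limma-voom and with a replicate block, and 1 to 2 without 1 library; the cause was not tested. All genes called for YSJZD against control numbered 2694, and between 1607 (without control replicate 1) and 2241 without 1 library, 1699 without control replicate 2.

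Scaling by library totals moved the median of all genes from 0.04 to 0.27 for cisplatin against control and from 0.01 to 0.20 for YSJZD against control. With it 66.1% in place of 52.4%, and 75.4% in place of 51.4%, of called genes were higher. The members' medians under the alternatives other than leaving out a library were 2.84 to 3.10, -1.93 to -1.82 and 0.53 to 0.77.

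Signs turned only in members that were not called and lay near 0. For YSJZD against cisplatin, Irf1 gave -0.0006 under library totals, and without 1 library Irf1 gave -0.06 to 0.18 and Cxcl10 -0.06 to 0.78. For YSJZD against control, Usp18 gave 0.18 and Trim25 0.15 under library totals, Usp18 gave 0.004 in the fit of 6 libraries, Samhd1 gave -0.0003 with DESeq2 size factors and -0.0001 in DESeq2, and Rtp4 gave -0.004 with DESeq2 size factors, -0.18 in limma-voom and -0.06 with the replicate block. Without 1 library, values for YSJZD against control ran from -0.26 to 0.19 for Usp18, -0.07 to 0.17 for Oas1a, -0.01 to 0.41 for Oasl2, -0.53 to 0.17 for Ifit3, -0.09 to 0.17 for Samhd1, -0.08 to 0.01 for Trim25 and -0.56 to 0.35 for Rtp4; the cause was not tested.

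The labels give groups the same replicate numbers. Correlations between same-numbered libraries ran from -0.197 to 0.092, and between differently numbered ones from -0.196 to 0.241. No sign of pairing was visible, but 3 libraries a group are too few to exclude it. With the replicate block, members called numbered 43, 40 and 17 in the 3 comparisons, and all genes called 7348, 4590 and 2367. The block gained the calls of Ifi44 with cisplatin (0.93) and, for YSJZD against control, of Gbp2 (1.52) and Ifi44 (-1.45), and lost those of Ifi27l2a with cisplatin (1.03) and Dtx3l for YSJZD against control (0.58). The groups hold 3 libraries each, and counting depth limits the ligand genes and scarce members such as Oas3.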
